A study of Mus musculus with 15 samples.

Results

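The BMP and TGF-beta pathway genes were followed through self-organizing mouse optic tissue as it was driven toward neural retina or toward pigment epithelium. A list of 43 genes of this pathway was set by symbol and role. It held TGF-beta, BMP, GDF, activin and nodal ligands, their type I and type II receptors, a co-receptor and a decoy receptor, secreted antagonists and binding proteins, 3 Smads and the 4 Id genes. All 43 symbols were found, each in 1 of the 23244 entries of the expression table. 42 of them reached at least 1 CPM in at least 3 libraries and were tested. The other one was Acvrl1, an endothelial type I receptor, at between 0 and 14 reads per library. No member was at 3 reads or fewer in every library.

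The tissue was made by SFEBq culture, in which dissociated stem cells reaggregate and form a continuous neuroepithelium. All groups came from the stem cell strain EB5 Rx::GFP+/-, which carries a GFP reporter at Rx, a gene of the eye field, so that GFP marks optic progenitor tissue. There were 5 groups of 3 libraries each, all from 1 stem cell line. The study calls the replicates biological. Day 10 Rx::GFP+ was the GFP-positive neural retina epithelium taken out with forceps at day 10. The remaining explants went into retinal maturation medium, renewed at days 11, 12 and 14, and were collected at day 12 or day 15. The +Wnt explants received CHIR99201, an inhibitor of the kinase GSK3 that mimics Wnt/beta-catenin signaling, at 3 uM for the first 24 hours and at 1 uM thereafter, and GEO's labels call them retinal pigmented epithelium. The +Fgf explants received 5 ng/mL human recombinant bFgf together with 10% fetal bovine serum, and the labels call them neural retina. Serum was in the +Fgf medium only, so the parts of bFgf and of serum cannot be told apart. No unstimulated explants at day 12 or day 15 were among the samples, so stimulation and time in culture cannot be told apart in a comparison with Day 10. By the study's own account, most but not all of a stimulated explant took the labelled fate.

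TGF-beta family ligands bind a pair of type II and type I receptor kinases, which phosphorylate Smad proteins. BMPs and most GDFs act through Smad1, Smad5 and Smad9, whereas TGF-betas, activins and nodal act through Smad2 and Smad3, and both branches share Smad4. Id1, Id2 and Id3, inhibitors of basic helix-loop-helix factors, are direct BMP targets, and Smad6, Smad7 and the decoy receptor Bambi are induced by the pathway and dampen it. In the early eye, BMP4 and BMP7 are required for lens and optic cup formation, BMP signals from the surface ectoderm and activin-like signals from the mesenchyme around the eye promote pigment epithelium, and TGF-beta2 is a main isoform of the retina.

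Because the Id genes and Smad6 are read below as targets of the pathway, the promoters that were at hand for them are shown. The RefSeq promoter table of build GRCm38.p6 covers 250 bases before to 50 bases after each gene start, and it held 27 of the 43 members in 31 windows. Bases are in lower case, and capitals mark the searched motifs GGCGCC (the core of GC-rich Smad1 and Smad5 sites) and GTCTAGAC (a palindromic Smad binding element), each of which reads the same on both strands. A further motif, CAGACA, was searched on both strands, and none of the motifs overlaps another.
Id2, minus strand, chr12:25096093-25096342: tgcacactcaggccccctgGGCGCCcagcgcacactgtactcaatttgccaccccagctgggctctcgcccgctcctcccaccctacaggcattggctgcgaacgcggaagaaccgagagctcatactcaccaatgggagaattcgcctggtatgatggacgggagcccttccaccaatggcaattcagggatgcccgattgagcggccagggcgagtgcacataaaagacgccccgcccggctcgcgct
Id3, plus strand, chr4:136143572-136143821: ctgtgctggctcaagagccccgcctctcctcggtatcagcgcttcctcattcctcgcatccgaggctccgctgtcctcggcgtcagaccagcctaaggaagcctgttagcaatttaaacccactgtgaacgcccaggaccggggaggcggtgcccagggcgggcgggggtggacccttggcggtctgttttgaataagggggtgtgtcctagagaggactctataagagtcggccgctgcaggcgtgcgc
Id4, plus strand, chr13:48260866-48261115: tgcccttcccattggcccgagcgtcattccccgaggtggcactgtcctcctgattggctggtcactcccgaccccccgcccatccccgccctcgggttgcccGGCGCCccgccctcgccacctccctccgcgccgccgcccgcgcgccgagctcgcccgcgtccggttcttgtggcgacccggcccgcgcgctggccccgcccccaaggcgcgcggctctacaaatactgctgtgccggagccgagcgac
Smad6, minus strand, chr9:64022056-64022309: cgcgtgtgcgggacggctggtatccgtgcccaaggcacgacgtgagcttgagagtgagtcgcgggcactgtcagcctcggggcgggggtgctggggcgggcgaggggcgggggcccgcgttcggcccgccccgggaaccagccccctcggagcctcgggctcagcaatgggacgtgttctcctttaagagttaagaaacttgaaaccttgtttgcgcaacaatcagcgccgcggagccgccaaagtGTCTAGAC
The Id windows show the 250 bases before the RefSeq start, and the Smad6 window runs 4 bases past it because its GTCTAGAC spans the start. Smad6 was the 1 member whose window held GTCTAGAC, which was present in 0.213% of all 32851 promoters of the table. GGCGCC was present in 9 of the 31 member windows (29.0%) and in 11.9% of all promoters. CAGACA was present in 6 member windows (19.4%) and in 21.0% of all promoters. A match describes these letters only. The RefSeq starts can differ from the gene starts of the annotation the study counted on. They also differ from the gene positions given below, which are from the GENCODE annotation: the Id2 and Id3 windows lie inside those gene spans.

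The deposited values are library-scaled read counts (CPM in the study's words), and differences are given on the scale of log2(CPM + 0.3), which understates changes of low genes. Each library held between 12556998 and 16175450 reads on genes, and 1 read was worth between 0.062 and 0.0764 CPM. Precision is further limited by 3 libraries a group. The labels were checked against marker genes. Neural retina markers (Rax, Six3, Six6, Pax6, Lhx2 and Sox2, summed) stood at between 1827.8 and 2053.3 CPM in Day 10 and +Fgf libraries and at between 592.2 and 881.1 CPM in +Wnt libraries. Markers of pigment epithelium (8 genes) reached between 5240.1 and 6781.9 CPM at Day 15 +Wnt, against between 328.4 and 395.9 CPM at Day 15 +Fgf. Most of the Day 15 +Wnt sum was Pmel, with a mean of 3685.6 CPM. At Day 12 +Wnt the sum was between 1324.8 and 1713.3 CPM, close above Day 10, at between 990.5 and 1324.5 CPM. Day 12 +Fgf stood at between 344.6 and 389.8 CPM. Rpe65, an enzyme of the mature pigment epithelium, had no read in the Day 15 +Wnt libraries, which allows up to 3 reads or between 0.186 and 0.224 CPM. These are bulk samples, so fewer cells of a type and less RNA per cell cannot be told apart.

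In each of the 6 comparisons between groups, the count of members called (adjusted p under 0.05) is set beside the share of all 13845 genes called. Pairs of comparisons share libraries, so their counts are not independent.
Between Day 12 +Fgf and Day 10, 30 of the 42 members differed, where 55.7% of all genes did. 22 were higher in Day 12 +Fgf (background 27.9%) and 8 were lower (background 27.8%), and 12 differed by at least 1 on the log2 scale (background 9.34%). Between Day 12 +Wnt and Day 10, 31 members differed (background 60.2%), of which 11 were higher (background 30.6%) and 20 were lower (background 29.6%) in Day 12 +Wnt, and 12 differed by at least 1 (background 10.5%). From Day 12 to Day 15 under +Fgf, 26 members changed (background 57.1%), 8 upward (background 27.2%) and 18 downward (background 29.9%), and 11 of them by at least 1 (background 12.3%). From Day 12 to Day 15 under +Wnt, 29 members changed (background 68%), 20 upward (background 32.5%) and 9 downward (background 35.5%), and 13 by at least 1 (background 16.7%). Quantile normalization, an alternative scaling, gave 13 upward and 10 downward in this last comparison. The share of all genes called under that scaling was not counted.

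At Day 12, 29 members differed between +Fgf and +Wnt (background 51.5%), with 21 higher in +Fgf (background 26.3%), 8 lower (background 25.2%) and 17 differing by at least 1 (background 12.7%). At Day 15, 32 members differed (background 68.7%), with 17 higher in +Fgf (background 38%), 15 lower (background 30.6%) and 17 differing by at least 1 (background 19.7%). The change from Day 12 to Day 15 itself differed between +Fgf and +Wnt, tested as an interaction, for 24 members (background 47.9%). It was more positive under +Fgf for 8 of them (background 27%) and more negative for 16 (background 20.9%), and the difference was at least 1 for 14 (background 14.2%). The median log2 difference of the members was 0.42 for Day 12 +Fgf minus Day 10 and -0.3 for Day 12 +Wnt minus Day 10, where the medians over all genes were 0 and 0.01. It was -0.27 from Day 12 to Day 15 under +Fgf and 0.36 under +Wnt, where all genes gave -0.02 in both. The RNA integrity numbers that the study states were lowest in the Day 15 +Fgf libraries, and with that number as a covariate the counts were 15 members from Day 12 to Day 15 under +Fgf (25.9% of all genes in that fit), 21 between +Fgf and +Wnt at Day 15 (46% of all genes) and 21 for the interaction (27.8% of all genes).

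**Figure D1:**
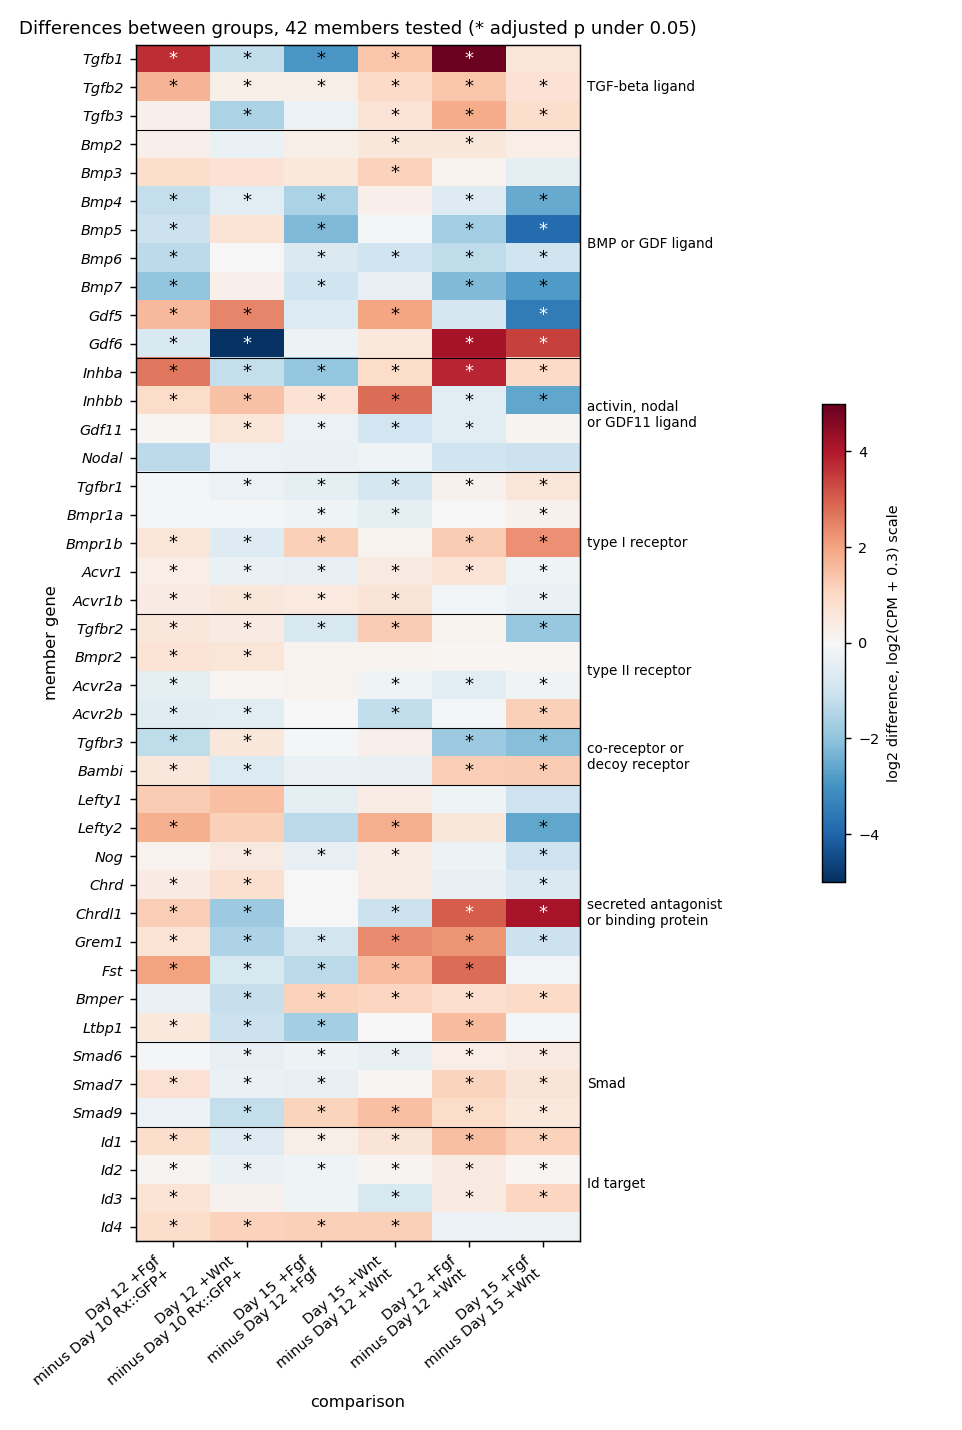
Log2 difference of each of the 42 tested members (vertical axis, grouped by role) in the 6 comparisons between groups (horizontal axis), on the log2(CPM + 0.3) scale by color, red for higher and blue for lower in the first-named group, with an asterisk where the adjusted p was under 0.05. Bmp4, Bmp5, Bmp6 and Bmp7 are blue in both columns of +Fgf minus +Wnt, while Tgfb1, Inhba, Gdf6 and Chrdl1 are deep red at Day 12.

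Bmp4, Bmp5, Bmp6 and Bmp7 fell under +Fgf and were lower there than under +Wnt at both days. Of the 8 BMP and GDF ligands, 5 were lower (background 27.8%) and 1 was higher (background 27.9%) in Day 12 +Fgf than at Day 10, with a median log2 difference of -0.92. Without replicate 3 of Day 10 these counts were 4 and 2, and the share of all genes was not counted in that fit. At Day 15, 5 were lower (background 30.6%) and 1 was higher (background 38%) in +Fgf than in +Wnt, with a median of -1.76. Bmp7 (chr2:172868012-172940321 in mm10, minus strand), a BMP of lens and optic cup, was the most abundant of them per kilobase of exon at Day 10, at 23.9 ± 2.30 CPM per kb (SD, n = 3), followed by Bmp4 at 18.2 ± 2.56. Its Day 10 libraries had 104.3, 86.0 and 97.3 CPM. Under +Fgf they had 26.7, 30.7 and 17.5 CPM at Day 12 and 8.85, 12.3 and 15.7 CPM at Day 15, and under +Wnt 106.6, 117.2 and 119.5 CPM and then 96.3, 82.5 and 82.3 CPM. Every +Fgf library lay below every library of the other groups. Bmp7 was 3.84-fold lower in Day 12 +Fgf than at Day 10 (log2 difference -1.96 ± 0.18 SE, adjusted p = 1.88e-07) and 7.09-fold lower in +Fgf than in +Wnt at Day 15 (-2.83 ± 0.18, adjusted p = 5.97e-10). Between Day 12 +Wnt and Day 10 the difference did not pass the test (0.26 ± 0.18, adjusted p = 0.233). Its further fall from Day 12 to Day 15 under +Fgf (-1.01 ± 0.18, adjusted p = 0.000168) did not pass with the RNA integrity number as a covariate (-0.57, adjusted p = 0.26).

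Bmp4 (chr14:46383520-46390669, minus strand), the dorsal BMP of the optic cup, had 44.8, 34.4 and 43.8 CPM at Day 10. It had 17.7, 19.7 and 15.8 CPM at Day 12 +Fgf, then 3.54, 6.04 and 8.27 CPM at Day 15 +Fgf. Under +Wnt the values were 25.6, 29.3 and 28.5 CPM at Day 12 and 36.4, 31.2 and 32.8 CPM at Day 15. The 6 +Fgf libraries were below all others, and the Day 15 ones did not overlap those of Day 12. Bmp4 fell by 1.19 ± 0.20 on the log2 scale from Day 10 to Day 12 +Fgf (adjusted p = 8.94e-05) and by a further 1.6 ± 0.20 to Day 15 (adjusted p = 3.31e-06), and at Day 15 it was 5.62-fold lower in +Fgf than in +Wnt (adjusted p = 7.93e-09). The change from Day 12 to Day 15 differed between +Fgf and +Wnt (interaction -1.86 ± 0.28, adjusted p = 4.12e-05). The lower level in Day 12 +Wnt than at Day 10 (-0.55, adjusted p = 0.0248) was no longer called without replicate 1 (-0.48, adjusted p = 0.0817) or replicate 3 of Day 10 (-0.49, adjusted p = 0.0765) or replicate 1 of Day 12 +Wnt (-0.49, adjusted p = 0.0773). The exons of Bmp4 overlap those of a gene on the opposite strand, and how the counting used strand is not given in the sources used here.

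Bmp5 and Bmp6, of the same subfamily as Bmp7, followed it in +Fgf. Bmp5 had 12.1, 10.6 and 13.4 CPM at Day 10, 5.96, 7.58 and 3.77 CPM at Day 12 +Fgf, and 0.442, 1.44 and 1.34 CPM at Day 15 +Fgf. In +Wnt it had 14.8, 21.1 and 22.4 CPM at Day 12 and 20.0, 18.9 and 15.6 CPM at Day 15. The groups of the 2 stimulations were apart at both days, and the distance grew: Bmp5 was 3.37-fold lower in +Fgf than in +Wnt at Day 12 (log2 difference -1.73 ± 0.28, adjusted p = 6.95e-05) and 16.9-fold lower at Day 15 (-3.84 ± 0.28, adjusted p = 3.19e-09), with an interaction of -2.1 ± 0.40 (adjusted p = 0.000376). With the RNA integrity number as a covariate the interaction was -1.79 (adjusted p = 0.0522). Bmp6 had 6.68, 5.35 and 6.04 CPM at Day 10 and 2.09, 3.5 and 1.53 CPM at Day 12 +Fgf, a 2.53-fold lower mean (-1.3 ± 0.23, adjusted p = 0.000186). It had 5.72, 5.78 and 6.22 CPM at Day 12 +Wnt and then fell there too, to 2.79, 3.13 and 2.53 CPM at Day 15 (-1.0 ± 0.23, adjusted p = 0.00118), while Day 15 +Fgf stood at 0.885, 1.72 and 1.27 CPM. The lower Bmp6 level in Day 15 +Fgf than in Day 15 +Wnt (-1.0) was not called with the RNA integrity number as a covariate (-0.92, adjusted p = 0.108) and was -0.51 (adjusted p = 0.0357) under quantile normalization. Its fall from Day 12 to Day 15 under +Fgf (-0.72) was lost with that covariate (-0.63, adjusted p = 0.379), without replicate 2 of Day 12 +Fgf (-0.43, adjusted p = 0.104) and without replicate 1 of Day 15 +Fgf (-0.52, adjusted p = 0.0807). The exons of Bmp5 and Bmp6 also overlap genes on the opposite strand, as do those of Gdf5, Bmpr1a, Acvr2a, Chrd and Id4. Markers of other dorsal neural tissue moved with Bmp4, Bmp5 and Bmp7. Lmx1a, a roof plate gene, had 17.9, 13.8 and 17.3 CPM at Day 10, 3.23, 4.97 and 1.53 CPM at Day 12 +Fgf, then 0.369, 1.1 and 2.26 CPM at Day 15 +Fgf. With CHIR99201 it had 19.8, 28.3 and 27.9 CPM at Day 12 and 25.4, 26.1 and 19.5 CPM at Day 15. Emx2, a gene of the dorsal telencephalon, had 61.5, 68.7 and 77.5 CPM at Day 10, between 0.811 and 32.5 CPM in the +Fgf libraries and between 96.3 and 143.1 CPM in the +Wnt libraries. Replicate 1 of Day 15 +Fgf was the lowest library for Lmx1a, Emx2, Bmp4, Bmp5 and Bmp7. The part of these markers in the BMP results was not tested.

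The GDF ligands Gdf5 and Gdf6, both BMP-like factors of skeletal and eye development, went apart. Gdf6 (chr4:9844372-9862345, plus strand), a gene of dorsal retinal identity, had 16.3, 14.8 and 13.5 CPM at Day 10. The +Wnt libraries held 0.126, 0.278 and 0.199 CPM at Day 12 and 0.248, 0.522 and 0.491 CPM at Day 15. In +Fgf it had 5.13, 14.3 and 8.31 CPM at Day 12 and 11.4, 5.98 and 5.37 CPM at Day 15. It was thus close to the level of a few reads in +Wnt and uneven between the replicates of +Fgf. The mean in Day 12 +Wnt was 74.0-fold below that of Day 10 (log2 difference -4.93 ± 0.31, adjusted p = 2.31e-09) and 46.0-fold below that of Day 12 +Fgf. Of the members, Gdf6 had the widest distance from Day 10 in the Day 12 comparisons. Gdf5 had 0, 0 and 0.153 CPM at Day 10, 0.38, 0.892 and 1.15 CPM at Day 12 +Fgf, and 0.692, 1.67 and 3.18 CPM at Day 12 +Wnt. It was called higher than at Day 10 in both Day 12 groups (log2 difference 1.62 for +Fgf and 2.46 for +Wnt). By Day 15 it had 8.56, 6.94 and 6.1 CPM in +Wnt and 0.442, 0.275 and 0.353 CPM in +Fgf, a 20.2-fold difference (-3.51 ± 0.37 for +Fgf minus +Wnt, adjusted p = 3.29e-07). The remaining ligands were Bmp2 and Bmp3. Bmp2 had its highest mean in Day 15 +Fgf, with 11.1, 13.7 and 9.05 CPM, and its lowest in Day 12 +Wnt, with 6.35, 6.75 and 4.9 CPM. At Day 12 it was called higher in +Fgf than in +Wnt (log2 difference 0.57). That call was lost without replicate 3 of Day 12 +Fgf (0.41, adjusted p = 0.0854) or of Day 12 +Wnt (0.44, adjusted p = 0.0765). Over all libraries Bmp2 lay between 4.9 and 13.7 CPM and Bmp3 between 0.0681 and 2.33 CPM.

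**Figure D2:**
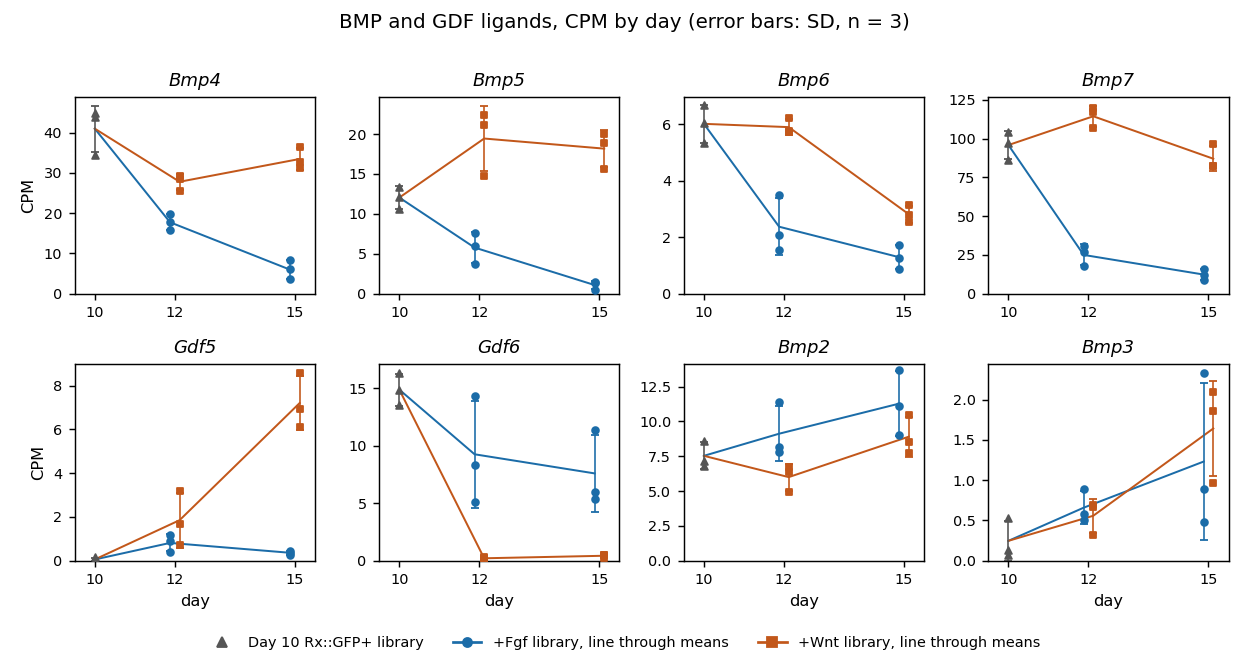
CPM (vertical axes, each from 0) of the 8 BMP and GDF ligands by day of culture (horizontal axes), with 1 point per library (triangles Day 10, circles +Fgf, squares +Wnt), lines through group means and bars of 1 SD (n = 3). Bmp4, Bmp5 and Bmp7 of +Fgf lie below +Wnt at both days, Gdf6 of +Wnt lies below 1 CPM, and Gdf5 exceeds 6 CPM in the Day 15 +Wnt libraries alone.

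Of the TGF-beta and activin ligands, Tgfb1 and Inhba had a peak in Day 12 +Fgf, whereas Tgfb2, Inhbb and Gdf11 were highest in other groups. Tgfb1 (chr7:25687002-25705077, plus strand), the founding TGF-beta isoform, had 0.886, 0.669 and 0.688 CPM at Day 10 and 11.3, 9.24 and 21.1 CPM at Day 12 +Fgf. It was back to 1.18, 1.72 and 1.55 CPM at Day 15 +Fgf. In +Wnt it had 0.252, 0.139 and 0.0662 CPM (between 1 and 4 reads) at Day 12 and 0.744, 0.746 and 1.19 CPM at Day 15. No library of another group came near those of Day 12 +Fgf, of which replicate 3 was the highest. The mean rose 18.6-fold from Day 10 (log2 difference 3.68 ± 0.28, adjusted p = 1.83e-08), fell 9.37-fold to Day 15 (-2.92 ± 0.28, adjusted p = 1.7e-07), and was 91.3-fold above that of Day 12 +Wnt (4.9 ± 0.28, adjusted p = 2.89e-10). The interaction was -4.32 ± 0.39 (adjusted p = 1.93e-07). At Day 15 the log2 difference between +Fgf and +Wnt was 0.59 ± 0.28 (adjusted p = 0.0687).

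Inhba (chr13:16011851-16031621, plus strand), which encodes the subunit of activin A, had the same shape at lower levels. It had 0.273, 0.869 and 0.535 CPM at Day 10, 4.44, 3.44 and 7.35 CPM at Day 12 +Fgf, and 1.18, 0.824 and 1.13 CPM at Day 15 +Fgf. In Day 12 +Wnt it was at 0, 0.139 and 0.0662 CPM, or between 0 and 2 reads, and in Day 15 +Wnt at 0.372, 0.149 and 0.772 CPM. The rise from Day 10 to Day 12 +Fgf was 9.08-fold (2.64 ± 0.35, adjusted p = 8.34e-06). Its fall to Day 15 +Fgf was 4.86-fold (-1.94 ± 0.35, adjusted p = 0.000148), and with the RNA integrity number as a covariate it missed the threshold (-1.79, adjusted p = 0.0799). Fst, which encodes follistatin, the binding protein that blocks activin, peaked in the same libraries. Fst had 6.81, 9.29 and 6.19 CPM at Day 10, 28.7, 26.4 and 35.9 CPM at Day 12 +Fgf, and 10.4, 12.3 and 12.2 CPM at Day 15 +Fgf, against 4.34, 2.99 and 5.23 CPM at Day 12 +Wnt, then 11.8, 12.0 and 14.0 CPM at Day 15 +Wnt. It rose 4.08-fold from Day 10 to Day 12 +Fgf (2.0 ± 0.18, adjusted p = 1.46e-07) and was 7.25-fold above Day 12 +Wnt (adjusted p = 1.54e-09). The fall to Day 15 +Fgf (-1.36, adjusted p = 7.62e-06) gave -0.97 (adjusted p = 0.0576) with that covariate, and at Day 15 the stimulations overlapped.

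Tgfb2 (chr1:186622792-186705989, minus strand) was the TGF-beta isoform with the highest level per kilobase in every group. It had 54.2, 58.2 and 65.5 CPM at Day 10, 189.9, 165.1 and 217.9 CPM at Day 12 +Fgf, then 247.8, 231.4 and 216.5 CPM at Day 15 +Fgf. With the GSK3 inhibitor it had 72.4, 71.3 and 73.7 CPM at Day 12 and 152.1, 136.9 and 136.6 CPM at Day 15. The level rose on both paths, early under +Fgf and late under +Wnt: by 1.68 ± 0.09 on the log2 scale from Day 10 to Day 12 +Fgf (adjusted p = 2.86e-10), by 0.29 ± 0.09 to Day 12 +Wnt (adjusted p = 0.00738), and by 0.96 ± 0.09 from Day 12 to Day 15 +Wnt (adjusted p = 4.24e-08). The last rise under +Fgf (0.29, adjusted p = 0.00897) was not called without replicate 2 of Day 12 +Fgf (0.19, adjusted p = 0.0622) or with the RNA integrity number as a covariate (0.09, adjusted p = 0.755). Tgfb3 had 21.2, 18.5 and 20.0 CPM at Day 10 and stayed near that level under +Fgf, at 26.4, 19.4 and 27.3 CPM and then 18.4, 21.3 and 19.9 CPM. Under +Wnt it had 6.1, 8.35 and 5.23 CPM at Day 12, a 3.03-fold lower mean (-1.58 ± 0.17, adjusted p = 1.01e-06), and 13.6, 8.43 and 10.2 CPM at Day 15. The exons of Tgfb2, Tgfb3 and Fst overlap genes on the opposite strand.

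Inhbb, which encodes the subunit of activin B, was the activin gene of the +Wnt path. Its libraries had 0.954, 1.14 and 1.68 CPM at Day 10, 3.4, 4.8 and 3.64 CPM at Day 12 +Wnt, then 27.8, 27.1 and 31.0 CPM at Day 15 +Wnt. Under +Fgf they had 2.85, 2.29 and 2.56 CPM and then 3.39, 4.74 and 5.51 CPM. The Day 15 +Wnt libraries stood far above all others, 7.26-fold over Day 12 +Wnt (log2 difference 2.78 ± 0.20, adjusted p = 2.54e-09) and 6.3-fold over Day 15 +Fgf (adjusted p = 4.38e-09), with an interaction of -2.04 ± 0.28 (adjusted p = 1.48e-05). Gdf11, a regulator of the timing of retinal neurogenesis, had 35.2, 38.1 and 34.2 CPM at Day 10 and was highest in Day 12 +Wnt, at 55.4, 57.5 and 52.6 CPM (0.62 ± 0.07 over Day 10, adjusted p = 8.07e-07). It then had 29.8, 28.2 and 28.1 CPM at Day 15 +Wnt, and under +Fgf 39.3, 36.9 and 38.0 CPM at Day 12 and 31.6, 33.7 and 28.8 CPM at Day 15. Nodal, at between 0 and 2.61 CPM, passed no comparison. Its replicates were uneven, with 0, 2.61 and 0.0707 CPM at Day 15 +Fgf.

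Ltbp1, which tethers latent TGF-beta to the matrix, is outside the rule for genes described in full and was added after its values were seen. It had 83.5, 73.3 and 73.0 CPM at Day 10 and 110.4, 100.5 and 121.2 CPM at Day 12 +Fgf, and the remaining groups lay together, at 38.6, 39.7 and 30.8 CPM at Day 12 +Wnt, 36.0, 31.9 and 35.3 CPM at Day 15 +Fgf, against 34.5, 39.1 and 35.4 CPM at Day 15 +Wnt. It was 3.04-fold higher in +Fgf than in +Wnt at Day 12 (1.6 ± 0.09, adjusted p = 4.64e-10), and the difference at Day 15 was -0.08 ± 0.09 (adjusted p = 0.466). The interaction was -1.68 ± 0.13 (adjusted p = 4.37e-08).

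**Figure D3:**
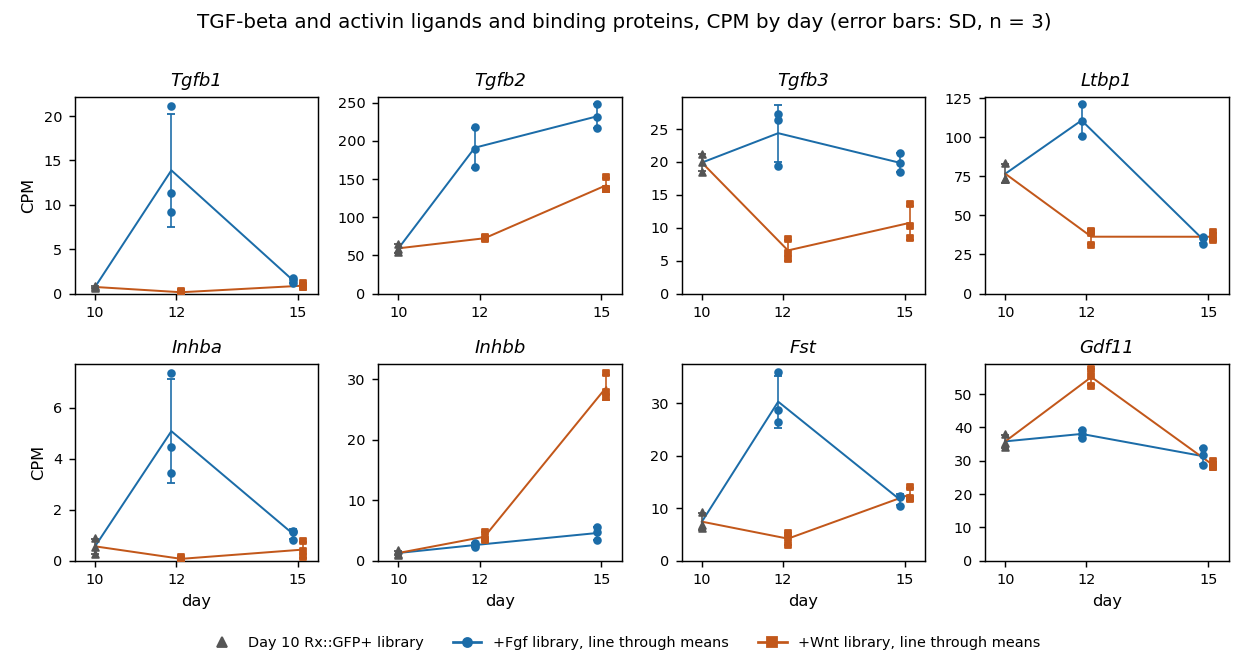
CPM (vertical axes, each from 0) of TGF-beta and activin ligands and of their binding proteins Ltbp1 and Fst by day of culture (horizontal axes), with 1 point per library (triangles Day 10, circles +Fgf, squares +Wnt), lines through group means and bars of 1 SD (n = 3). Tgfb1, Inhba, Fst and Ltbp1 are highest in the 3 Day 12 +Fgf libraries, and Inhbb in the 3 Day 15 +Wnt libraries.

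Among the secreted antagonists and binding proteins (9 members), 6 were higher (background 27.9%) and none was lower in Day 12 +Fgf than at Day 10 (median log2 difference 0.68). Without replicate 3 of Day 12 +Fgf 3 were higher, since Chrd (0.29, adjusted p = 0.19), Grem1 (0.48, adjusted p = 0.0687) and Lefty2 (1.5, adjusted p = 0.0664) were lost, and with the RNA integrity number as a covariate 3 were higher and 1 was lower. In Day 12 +Wnt 2 were higher (background 30.6%) and 5 were lower (background 29.6%) than at Day 10 (median -0.8), and without replicate 1 of Day 15 +Wnt 4 were higher. From Day 12 to Day 15, 5 rose (background 32.5%) and 1 fell (background 35.5%) under +Wnt, and 3 rose without replicate 3 of Day 15 +Wnt and 2 under quantile normalization. For these alternative fits of the antagonists the shares of all genes were not counted. Chrdl1 (chrX:143285674-143394262, minus strand), a chordin-like BMP antagonist that the retina expresses, had 20.4, 25.5 and 21.9 CPM at Day 10. It had 54.4, 48.2 and 58.0 CPM at Day 12 +Fgf, then 55.1, 56.3 and 50.2 CPM at Day 15 +Fgf, against 6.98, 5.99 and 5.76 CPM and then 2.67, 2.91 and 2.95 CPM in +Wnt. The Day 10 libraries lay between the stimulated ones with no overlap. Chrdl1 rose by 1.24 ± 0.10 to Day 12 +Fgf (adjusted p = 6.48e-08) and fell by 1.81 ± 0.10 to Day 12 +Wnt (adjusted p = 8.27e-10). It was 8.57-fold higher in +Fgf than in +Wnt at Day 12 (adjusted p = 1.11e-12) and 19.0-fold higher at Day 15 (4.11 ± 0.10, adjusted p = 7.55e-15).

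Grem1, the BMP antagonist gremlin, changed order with time. It had 4.29, 6.89 and 5.43 CPM at Day 10, 8.49, 7.01 and 11.7 CPM at Day 12 +Fgf, then 4.94, 4.67 and 4.24 CPM at Day 15 +Fgf. In +Wnt it had 1.32, 1.53 and 2.32 CPM at Day 12 and 9.43, 10.2 and 10.4 CPM at Day 15. At Day 12 +Fgf was 5.26-fold above +Wnt (2.21 ± 0.21, adjusted p = 1.31e-07), and at Day 15 it was 2.17-fold below (-1.07 ± 0.21, adjusted p = 0.000201), with an interaction of -3.28 ± 0.29 (adjusted p = 1.51e-07). Its rise from Day 10 to Day 12 +Fgf (0.68, adjusted p = 0.0104) was not called without replicate 1 of Day 10 (0.52, adjusted p = 0.0584) or replicate 3 of Day 12 +Fgf (0.48, adjusted p = 0.0687). Bmper, an extracellular modulator of BMP, had 1.98, 3.21 and 3.06 CPM at Day 10. It was lowest in Day 12 +Wnt, at 1.2, 0.835 and 1.13 CPM, and highest in Day 15 +Fgf, at 3.98, 5.29 and 6.15 CPM (1.16 ± 0.23 over Day 12 +Fgf, adjusted p = 0.000404), with 1.96, 2.23 and 2.11 CPM at Day 12 +Fgf, against 1.74, 2.83 and 3.16 CPM at Day 15 +Wnt. Chrd, which encodes chordin, had 3.13, 3.08 and 2.29 CPM at Day 10 and 5.41, 4.73 and 5.3 CPM at Day 12 +Wnt (0.81 ± 0.17, adjusted p = 0.000539), then 7.13, 5.82 and 7.16 CPM at Day 15 +Wnt, with 3.99, 3.06 and 4.66 CPM and 3.54, 3.98 and 4.17 CPM under +Fgf. Nog, which encodes noggin, lay between 4.28 and 12.1 CPM and was highest in Day 15 +Wnt. It was there 2.08-fold over Day 15 +Fgf (adjusted p = 3.29e-06). The nodal antagonists Lefty1 and Lefty2 were at most at 1.94 and 6.12 CPM and uneven between replicates, as in Day 15 +Wnt, where Lefty2 had 1.05, 6.12 and 5.61 CPM. The pluripotency marker Pou5f1 had 2.05, 11.9 and 11.9 CPM in those libraries, and at Day 15 +Fgf it had 0, 2.88 and 0.212 CPM, where Nodal had 0, 2.61 and 0.0707 CPM. At Day 10 Pou5f1 had 8.38, 7.75 and 8.41 CPM, with Lefty2 at 0.136, 0.267 and 0.0764 CPM. Its part in the Lefty2 and Nodal values was not tested.

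Among the receptor genes, Bmpr1b, Tgfbr2, Acvr2b, the co-receptor Tgfbr3 and the decoy receptor Bambi held the differences of at least 1. Per kilobase of exon, the type I receptors Tgfbr1, for TGF-beta, and Bmpr1a, for BMP, were the most abundant of the receptors in every group. At Day 10 they stood at 51.3 ± 3.08 and 43.1 ± 3.32 CPM per kb (SD, n = 3). Over all libraries Tgfbr1 lay between 144.1 and 358.3 CPM and Bmpr1a between 183.9 and 293.6 CPM, both lowest in Day 15 +Wnt. Bmpr1b (chr3:141837136-142169425, minus strand), the other BMP type I receptor, was highest in Day 15 +Fgf. It had 12.3, 16.5 and 18.6 CPM at Day 10, 34.2, 16.9 and 24.0 CPM at Day 12 +Fgf, then 47.0, 53.5 and 69.0 CPM at Day 15 +Fgf. Its +Wnt values were 11.3, 7.38 and 11.8 CPM at Day 12 and 11.1, 11.5 and 11.4 CPM at Day 15. The Day 15 +Fgf libraries were above all others, by 1.21 ± 0.22 over Day 12 +Fgf (adjusted p = 0.000201) and 4.99-fold over Day 15 +Wnt (2.27 ± 0.22, adjusted p = 1.11e-07). Acvr1b, an activin type I receptor, lay between 30.9 and 79.2 CPM and rose at each step on both paths (log2 differences between 0.42 and 0.66). The adjusted p of these 4 steps lay between 2.75e-08 and 1.29e-05.

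The type II receptor Tgfbr2, for TGF-beta, was chosen after its values were seen. It had 6.27, 4.55 and 5.2 CPM at Day 10 and 20.2, 15.3 and 17.5 CPM at Day 15 +Wnt, with 8.68, 6.26 and 6.49 CPM at Day 12 +Wnt, 7.42, 8.28 and 8.5 CPM at Day 12 +Fgf, then 4.87, 4.26 and 4.52 CPM at Day 15 +Fgf. Its Day 15 +Wnt libraries were 3.88-fold above Day 15 +Fgf (log2 difference of +Fgf minus +Wnt -1.88 ± 0.15, adjusted p = 8.35e-09) and 2.47-fold above Day 12 +Wnt (adjusted p = 1.06e-06). Acvr2b, an activin type II receptor, went the other way there. Acvr2b had 19.5, 20.5 and 20.2 CPM at Day 10, 14.3, 11.9 and 13.5 CPM at Day 12 +Fgf, 13.9, 14.0 and 12.0 CPM at Day 15 +Fgf, 14.8, 13.5 and 13.0 CPM at Day 12 +Wnt, then 5.4, 5.67 and 5.89 CPM at Day 15 +Wnt, a 2.43-fold fall from Day 12 (-1.24 ± 0.10, adjusted p = 1.07e-08). Bmpr2, the BMP type II receptor, lay between 19.4 and 39.3 CPM and was higher than at Day 10 in both Day 12 groups (adjusted p = 3.96e-06 and 1.2e-05). The co-receptor Tgfbr3, betaglycan, which presents TGF-beta2 and inhibin, split the stimulations. It had 15.3, 14.3 and 11.0 CPM at Day 10, 5.7, 7.2 and 3.9 CPM at Day 12 +Fgf, 4.65, 6.59 and 4.59 CPM at Day 15 +Fgf, 22.1, 18.5 and 18.7 CPM at Day 12 +Wnt, then 25.6, 21.4 and 23.8 CPM at Day 15 +Wnt. No +Fgf library reached the lowest of the others. Tgfbr3 fell 2.42-fold to Day 12 +Fgf (-1.26 ± 0.19, adjusted p = 3.14e-05) and at Day 15 was 4.47-fold lower in +Fgf than in +Wnt (adjusted p = 3.44e-08). The exons of Tgfbr3 overlap those of a gene on the same strand.

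**Figure D4:**
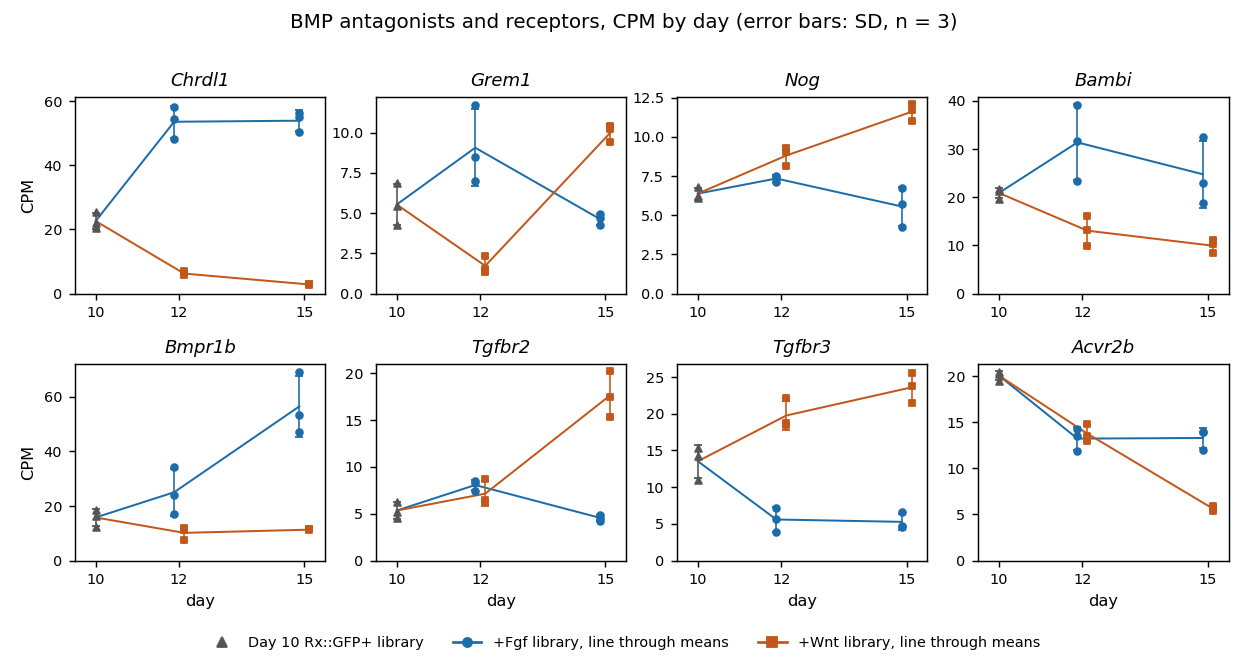
CPM (vertical axes, each from 0) of BMP antagonists, the decoy receptor Bambi and receptors by day of culture (horizontal axes), with 1 point per library (triangles Day 10, circles +Fgf, squares +Wnt), lines through group means and bars of 1 SD (n = 3). Chrdl1 and Bmpr1b are higher in +Fgf, Tgfbr3 is higher in +Wnt at both days, and Grem1 is higher in +Fgf at Day 12 and in +Wnt at Day 15.

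Among the targets and feedback genes, Id1, Id3, Smad6, Smad7 and Bambi were higher in +Fgf than in +Wnt at both days, whereas Bmp4, Bmp5, Bmp6 and Bmp7 were lower there at both days. Not all ligands and targets followed this division. Gdf6 was higher in +Fgf at both days (log2 difference 4.15 and 3.4), Bmp2 was called higher in +Fgf at Day 12 (0.57), and Id4 was called at neither day. The Day 15 calls of Bmp6, Smad6 and Bambi did not hold with the RNA integrity number as a covariate. Serum was in the +Fgf medium only, and its part in the Id, Smad and Bambi values was not tested. Id1 (chr2:152736251-152737410, plus strand) had 99.1, 75.1 and 87.0 CPM at Day 10, 147.2, 168.4 and 160.5 CPM at Day 12 +Fgf, then 201.9, 192.2 and 186.7 CPM at Day 15 +Fgf. Under +Wnt it stood at 48.4, 54.7 and 64.6 CPM at Day 12 and 100.5, 82.7 and 81.4 CPM at Day 15. All +Fgf libraries exceeded all others. Id1 was 2.84-fold higher in +Fgf than in +Wnt at Day 12 (log2 difference 1.51 ± 0.11, adjusted p = 4.6e-09) and 2.2-fold higher at Day 15 (1.14 ± 0.11, adjusted p = 6.48e-08). It fell by 0.64 ± 0.11 from Day 10 to Day 12 +Wnt (adjusted p = 7.69e-05) and rose by 0.66 ± 0.11 from there to Day 15 +Wnt (adjusted p = 3.62e-05).

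Id3 (chr4:136143497-136145755, plus strand), whose promoter window held none of the motifs, was the Id gene with the highest level per kilobase in each group, at 166.3 ± 23.8 CPM per kb (SD, n = 3) at Day 10. It had 337.8, 253.0 and 302.8 CPM at Day 10, 434.3, 511.2 and 465.5 CPM at Day 12 +Fgf, then 444.4, 386.8 and 392.6 CPM at Day 15 +Fgf. Under +Wnt it stood at 312.8, 350.7 and 359.5 CPM and then 206.3, 191.7 and 188.0 CPM. Id3 thus lay higher in Day 12 +Fgf than at Day 10 (0.67 ± 0.09, adjusted p = 1.04e-05), overlapped Day 10 in Day 12 +Wnt, and fell 1.75-fold from Day 12 to Day 15 +Wnt (-0.8 ± 0.09, adjusted p = 5.96e-07). At Day 15 it was 2.09-fold higher in +Fgf (adjusted p = 1.75e-08). Id2 (chr12:25093799-25097140, minus strand), with 1 GGCGCC in its window, stayed within a narrow range. It had 222.2, 225.2 and 224.9 CPM at Day 10, 232.2, 251.4 and 257.3 CPM at Day 12 +Fgf, 210.7, 211.1 and 207.3 CPM at Day 15 +Fgf, 173.0, 181.0 and 182.7 CPM at Day 12 +Wnt, then 201.2, 192.5 and 189.0 CPM at Day 15 +Wnt. It was 1.38-fold higher in +Fgf at Day 12 (0.46 ± 0.04, adjusted p = 9.53e-08). At Day 15 the difference (0.11, adjusted p = 0.0272) took the other sign under quantile normalization (-0.05, adjusted p = 0.313) and with the RNA integrity number as a covariate (-0.02, adjusted p = 0.85), and without replicate 3 of Day 15 +Wnt it was 0.09 (adjusted p = 0.102). Id4 (chr13:48261228-48266026, plus strand), an Id gene of neural precursors, rose from Day 12 to Day 15 on both paths, and its difference between them passed the test at neither day (-0.28 ± 0.28 and -0.27 ± 0.28, adjusted p = 0.433 and 0.405). It had 7.09, 12.2 and 21.3 CPM at Day 10, 17.9, 31.8 and 20.4 CPM at Day 12 +Fgf, 48.0, 53.6 and 56.3 CPM at Day 15 +Fgf, 33.5, 23.2 and 27.0 CPM at Day 12 +Wnt, then 52.0, 61.8 and 79.9 CPM at Day 15 +Wnt. The rise from Day 12 to Day 15 was 1.2 ± 0.28 under each stimulation (adjusted p = 0.00176 for +Fgf and 0.00135 for +Wnt), and 2.01 under +Fgf with the RNA integrity number as a covariate (adjusted p = 0.0126). Its earlier rise depended on replicate 1 of Day 10, the lowest library, and on that covariate, with which it was called neither for Day 12 +Wnt (0.76, adjusted p = 0.0847) nor for Day 12 +Fgf (0.38, adjusted p = 0.463). Without that library the value for Day 12 +Wnt went from 1.15 to 0.76 (adjusted p = 0.015) and that for Day 12 +Fgf from 0.86 to 0.48 (adjusted p = 0.113), which was lost as well without replicate 2 of Day 12 +Fgf (0.62, adjusted p = 0.0896).

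Of the inhibitory Smads and Bambi, Smad6 had the smallest differences between +Fgf and +Wnt. Smad6 (chr9:63953076-64022059, minus strand), the inhibitor of the BMP branch and the member with GTCTAGAC at its start, had 17.6, 20.0 and 18.6 CPM at Day 10, 16.3, 18.2 and 19.2 CPM at Day 12 +Fgf, then 16.0, 16.1 and 12.6 CPM at Day 15 +Fgf. The +Wnt explants had 13.8, 14.3 and 13.8 CPM and then 11.4, 10.1 and 11.0 CPM. It was 1.28-fold higher in +Fgf at Day 12 (0.34 ± 0.10, adjusted p = 0.00996) and 1.38-fold higher at Day 15 (0.44 ± 0.10, adjusted p = 0.00107), the latter not with the RNA integrity number as a covariate (0.15, adjusted p = 0.521). Smad7, which inhibits both branches, had 7.97, 8.96 and 10.9 CPM at Day 10, 15.4, 14.6 and 18.3 CPM at Day 12 +Fgf, 13.1, 10.6 and 12.2 CPM at Day 15 +Fgf, 7.67, 7.17 and 6.62 CPM at Day 12 +Wnt, then 6.27, 7.98 and 8.77 CPM at Day 15 +Wnt. Smad7 rose 1.73-fold to Day 12 +Fgf (0.78 ± 0.14, adjusted p = 0.000232), and was 2.25-fold higher in +Fgf than in +Wnt at Day 12 (adjusted p = 4.96e-06) and 1.56-fold higher at Day 15 (adjusted p = 0.000913). Bambi had 21.7, 21.3 and 19.7 CPM at Day 10, 23.4, 39.2 and 31.6 CPM at Day 12 +Fgf, 32.5, 18.9 and 23.0 CPM at Day 15 +Fgf, 9.81, 13.3 and 16.1 CPM at Day 12 +Wnt, then 10.4, 11.1 and 8.35 CPM at Day 15 +Wnt. It was 2.4-fold higher in +Fgf at Day 12 (1.24 ± 0.20, adjusted p = 8.12e-05) and 2.49-fold higher at Day 15 (1.26 ± 0.20, adjusted p = 3.75e-05). The Day 15 difference was 0.8 (adjusted p = 0.0881) with the RNA integrity number as a covariate. Smad9, a BMP effector, lay between 1.67 and 11.1 CPM and was lowest in Day 12 +Wnt.

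**Figure D5:**
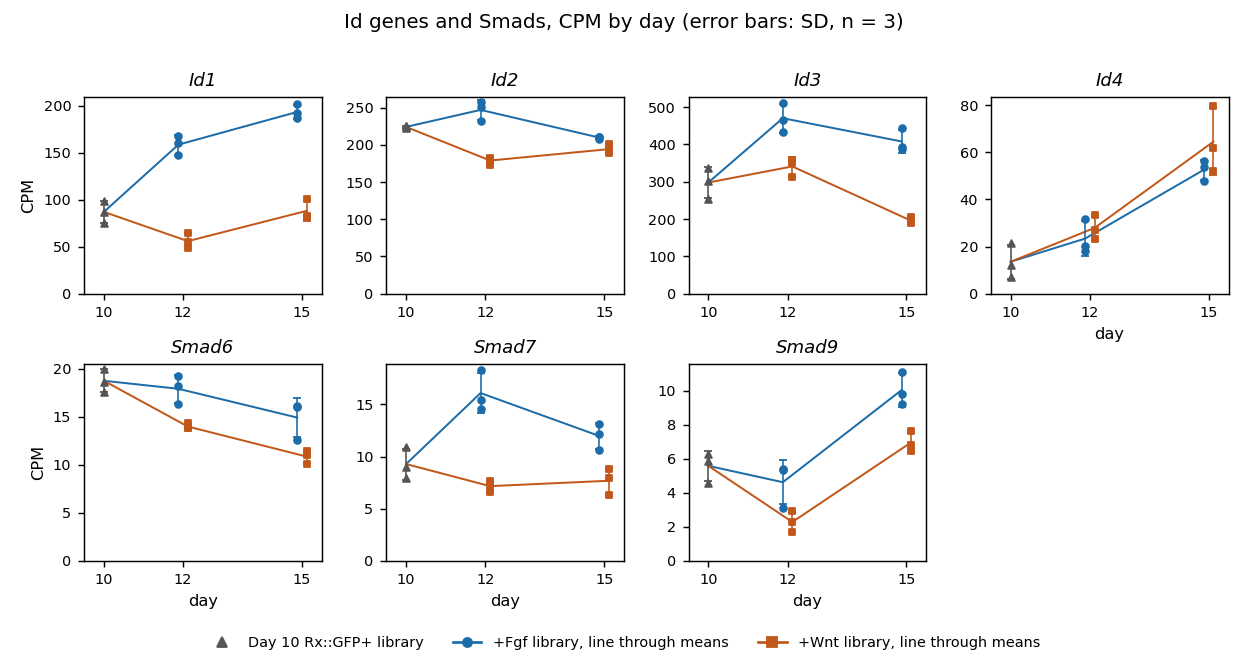
CPM (vertical axes, each from 0) of the 4 Id genes and of Smad6, Smad7 and Smad9 by day of culture (horizontal axes), with 1 point per library (triangles Day 10, circles +Fgf, squares +Wnt), lines through group means and bars of 1 SD (n = 3). Id1 and Smad7 are higher in every +Fgf library than in any +Wnt library, while Id4 rises on both paths.

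A second list, of 80 other genes of the pathway, gave 64 that could be tested. In Day 12 +Fgf against Day 10, 23 of them were higher and 11 lower, or 53.1% called where 55.7% of all genes were, and in Day 12 +Wnt 15 were higher and 29 lower, or 68.8% where 60.2% of all genes were. The list of 9 TGF-beta and activin target genes had 6 higher (background 27.9%) and 2 lower (background 27.8%) in Day 12 +Fgf (median log2 difference 1.02). In Day 12 +Wnt 1 was higher (background 30.6%) and 6 were lower (background 29.6%), with a median of -1.06. From Day 12 to Day 15 under +Fgf, 1 rose (background 27.2%) and 8 fell (background 29.9%), with a median of -1.5. With the RNA integrity number as a covariate none rose and 5 fell, where 25.9% of all genes were called in either direction. Thbs1, which encodes the matrix protein thrombospondin 1, had 60.8, 56.3 and 55.2 CPM at Day 10 and 107.7, 94.7 and 155.4 CPM at Day 12 +Fgf, then 17.4, 17.5 and 20.7 CPM at Day 15 +Fgf. Its Day 12 +Fgf libraries were above all others, and it fell from there to Day 15 +Fgf by 2.64 ± 0.13 on the log2 scale (adjusted p = 1.3e-10). Cdkn2b, a cell cycle inhibitor that TGF-beta induces, had 0.273, 0.334 and 0.458 CPM at Day 10 and 11.3, 7.52 and 18.7 CPM at Day 12 +Fgf, then 1.55, 1.1 and 1.7 CPM at Day 15 +Fgf. It rose by 4.21 (adjusted p = 7.86e-09) and fell by 2.8 (adjusted p = 5.43e-07) on the log2 scale. Cdkn1a, a further inhibitor of that kind, went down instead, from between 161.3 and 182.4 CPM at Day 10 to between 71.5 and 79.2 CPM at Day 12 +Fgf (-1.19, adjusted p = 7.08e-10). Ctgf had 34.8, 38.7 and 33.1 CPM at Day 10, 54.8, 55.0 and 79.7 CPM at Day 12 +Fgf, against 10.7, 12.2 and 12.4 CPM at Day 12 +Wnt, and it answers to signals besides TGF-beta. Serum was in the +Fgf medium, and its part in these target genes was not tested.

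The list of BMP target transcription factors had 8 tested genes, of which 6 were higher and 1 was lower in +Fgf than in +Wnt at each day (median 1.36 at Day 12 and 1.76 at Day 15). Of all genes, 26.3% were higher and 25.2% were lower at Day 12, and 38% and 30.6% at Day 15. Tbx3, a dorsal retina factor, had 30.8, 23.5 and 29.6 CPM at Day 10, 32.3, 45.7 and 37.4 CPM at Day 12 +Fgf, then 77.6, 63.2 and 55.8 CPM at Day 15 +Fgf. The +Wnt explants had 4.47, 2.64 and 2.85 CPM and then 0.744, 1.86 and 2.03 CPM, so that the +Fgf minus +Wnt difference was 3.44 at Day 12 (adjusted p = 7.78e-09) and 5.23 at Day 15 (adjusted p = 1.63e-11). Tbx5, another dorsal factor, had between 5.98 and 15.3 CPM at Day 15 +Fgf and between 0.746 and 1.4 CPM at Day 15 +Wnt (2.72, adjusted p = 3.19e-05, and 1.57, adjusted p = 0.103, with the RNA integrity number as a covariate). Atoh8 had between 23.4 and 24.5 CPM at Day 15 +Fgf and between 3.8 and 4.84 CPM at Day 15 +Wnt (2.45, adjusted p = 8.92e-12). Msx1 was the exception in the list, with 0.442, 1.51 and 2.69 CPM at Day 15 +Fgf, against 13.1, 9.02 and 10.4 CPM at Day 15 +Wnt (-2.79, adjusted p = 1.38e-06). Msx2 had 11.4, 11.1 and 8.94 CPM at Day 10 and fell in Day 12 +Fgf (-0.9, adjusted p = 0.00727) and in Day 12 +Wnt (-1.44, adjusted p = 0.000145). Several genes of the list, Tbx3 and Tbx5 among them, are themselves genes of the neural retina, whose markers were lower in +Wnt by the sums given above, and the part of that in these differences was not tested.

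Of the 5 receptor-regulated and common Smads, 3 were higher in +Fgf than in +Wnt at each day (background 26.3% at Day 12 and 38% at Day 15). None was lower (background 25.2% and 30.6%), and the medians were 0.15 at Day 12 and 0.24 at Day 15. Smad2 had the widest difference (1.16 at Day 15, adjusted p = 8.15e-12). Of the 8 Smad ubiquitin ligases and corepressors, 6 were higher in +Fgf at Day 12 and 5 at Day 15, and none was lower, beside the same shares of all genes. The remaining lists were divided. Among 20 tested secreted regulators, 10 were higher (background 26.3%) and 7 lower (background 25.2%) in +Fgf than in +Wnt at Day 12. At Day 15, 4 of the 20 were higher (background 38%) and 10 lower (background 30.6%). These regulators included Htra1, a secreted protease, with 2.25, 2.34 and 3.67 CPM at Day 10, 16.5, 15.8 and 25.0 CPM at Day 12 +Fgf, against 63.6, 45.8 and 68.7 CPM at Day 15 +Wnt. Fstl5, a follistatin-like gene, had 8.43, 13.5 and 14.0 CPM at Day 12 +Wnt against 1.33, 2.17 and 1.21 CPM at Day 12 +Fgf (-2.72, adjusted p = 1.22e-07). Lrrc32, which anchors latent TGF-beta at the cell surface, had 8.37, 6.12 and 7.22 CPM at Day 12 +Wnt, against 1.98, 1.07 and 1.07 CPM at Day 10 (2.2, adjusted p = 9.48e-06). Sostdc1, an antagonist of BMP and Wnt, had 38.0, 30.7 and 28.2 CPM at Day 15 +Wnt, against 0.59, 2.82 and 3.25 CPM at Day 15 +Fgf (-3.92, adjusted p = 1.82e-07). Of the 17 other ligands, 8 could be tested, and Mstn, myostatin, had 7.15, 7.69 and 6.01 CPM at Day 15 +Fgf and at most 0.252 CPM elsewhere (at least 33.6-fold over Day 15 +Wnt, taking 3 reads a library as the floor there, adjusted p = 2.46e-10). Of the 9 other receptors and co-receptors 6 could be tested, and 1 was higher (background 38%) and 2 were lower (background 30.6%) in +Fgf at Day 15.

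Markers of other tissues moved with the Day 15 +Wnt libraries, in which Inhbb, Gdf5, Grem1, Nog, Tgfbr2 and Tgfbr3 had their highest group means. The summed level of 11 genes of neural crest and mesenchyme was between 565.6 and 680.2 CPM there, against between 118.8 and 159.7 CPM at Day 12 +Wnt, 128.0 and 165.6 CPM at Day 15 +Fgf, 165.7 and 292.4 CPM at Day 12 +Fgf and 78.6 and 105.3 CPM at Day 10. Of these genes Sox10 and Foxd3 were at 3 reads or fewer in each Day 15 +Wnt library. Col1a1, which is in the mesenchyme list and also among the TGF-beta target genes, had 70.5, 46.5 and 67.6 CPM there, 2.77, 2.71 and 3.71 CPM at Day 12 +Wnt, against 20.4, 30.9 and 20.4 CPM at Day 12 +Fgf. The 5 genes of choroid plexus and roof plate summed to between 854.6 and 1342.4 CPM at Day 15 +Wnt and to at most 157.6 CPM in any other library, most of it Ttr. In the Day 15 +Fgf libraries, where Bmpr1b was highest, the 6 markers of retinal neurons summed to between 1443.5 and 1613.5 CPM, against between 842.0 and 1007.2 CPM at Day 15 +Wnt. Most of the +Wnt sum was Tubb3, Stmn2 and Elavl4, with means of 574.7, 238.4 and 94.4 CPM. Atoh7, Isl1 and Pou4f2 had means of 102.2, 108.8 and 82.1 CPM at Day 15 +Fgf, against 0.0674, 0.644 and 1.53 CPM at Day 15 +Wnt. The 5 endothelial genes summed to between 216.3 and 266.8 CPM at Day 15 +Fgf, most of it Kdr, which retinal progenitors also express, with Cdh5 and Emcn at 3 reads or fewer in each of these libraries. Markers of lens and surface ectoderm (6 genes) summed to at most 2.23 CPM in every library, and Ptprc, the blood marker found, to at most 0.275 CPM. Telencephalon markers (4 genes) summed to between 370.7 and 426.9 CPM at Day 15 +Wnt and to at most 258.1 CPM in other groups, and pluripotency markers (3 genes) to at most 26.0 CPM. The parts of the mesenchyme, choroid plexus, neuron, telencephalon, endothelium and pluripotency markers in the results for the members were not tested.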

How the data were processed

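RNA was sequenced from 15 libraries, 3 for each of 5 groups. According to the study, reads were prepared with bcl2fastq 1.8.4 and FastQC 0.10.1, aligned to mm10 with TopHat 2.0.8b, quantified on the UCSC gene models by Cuffdiff of Cufflinks 2.1.1, and analysed with edgeR 3.2.4. The deposited signal values, which the authors call CPM, are counts scaled per library (column totals between 936418 and 1075448). 100.0% of the values above 0 were whole multiples of 1 read within 0.1 reads, so reads could be recovered. Totals per library lay between 12556998 and 16175450 reads. The strand setting of the counting is not given in the sources used here.

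Differences were tested with limma 3.58.1 (R 4.3.3) on log2(CPM + 0.3), as 5 group means over all 15 libraries with a mean trend, two-sided, over the 13845 of 23244 entries with at least 1 CPM in at least 3 libraries. P-values were adjusted by Benjamini-Hochberg over these entries at a threshold of 0.05, and folds are ratios of group mean CPM. The scripts were tested on simulated data. The members, the other gene lists and the markers (neural retina, retinal neurons, pigment epithelium, mesenchyme, endothelium, lens, telencephalon, choroid plexus, blood, pluripotency) were chosen with earlier results of these data known. Members were described in full if among the 3 largest increases or decreases of a comparison (adjusted p under 0.05, at least 5 CPM in the higher group, no overlap), together with the Id genes, Smad6, Smad7, Bambi, Bmp4, Bmp7 and Tgfb2. Of the other pathway genes the 2 largest in each direction were named. Some genes were left out of the pathway and marker lists and are not reported here. Alternatives were pseudocounts of 0.05 and 1, no filter and a filter of 10 CPM, quantile and median-of-ratios scaling, no trend, edgeR 4.0.16 on recovered reads, a replicate block, fits on the compared groups alone, the RNA integrity number as a covariate, and leaving out each library.

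Replicates of a group differed beyond sampling noise (chi-square per degree of freedom between 2.68 and 8.59 over 15 pairs), so no library was counted as deposited more than once. Whether the replicates came from separate cultures is stated only as biological triplicate, so p-values measure the spread between these libraries.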

Additional observations from a re-analysis of the deposited data

Results flagged for a closer look

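For 24 of the 42 members the change from Day 12 to Day 15 under +Fgf differed from that under +Wnt, tested as an interaction in limma with Benjamini-Hochberg adjustment, where 47.9% of all genes differed. Values are the +Fgf change minus the +Wnt change on the log2 scale. Among ligands the difference was -4.32 for Tgfb1, -0.68 for Tgfb2, -0.96 for Tgfb3, -1.86 for Bmp4, -2.1 for Bmp5, -2.66 for Gdf5, -2.86 for Inhba, -2.04 for Inhbb and 0.66 for Gdf11. Among receptors it was 0.4 for Tgfbr1, 0.23 for Bmpr1a, 1.02 for Bmpr1b, -0.87 for Acvr1, -2.06 for Tgfbr2, 0.38 for Acvr2a and 1.25 for Acvr2b. Among antagonists and binding proteins it was -3.16 for Lefty2, -0.79 for Nog, 1.07 for Chrdl1, -3.28 for Grem1, -2.91 for Fst and -1.68 for Ltbp1. Among targets it was -0.35 for Id2 and 0.6 for Id3. The adjusted p of these members lay between 4.37e-08 for Ltbp1 and 0.0136 for Bmpr1a. With the RNA integrity number as a covariate 21 members passed (27.8% of all genes), including some that were not called without it. Of the 24, Bmp5 (-1.79, adjusted p = 0.0522), Bmpr1a (0.29, adjusted p = 0.0736), Lefty2 (-3.07, adjusted p = 0.107), Nog (-0.55, adjusted p = 0.204) and Id3 (0.32, adjusted p = 0.224) were not called with it. Tgfb1, Inhba, Fst, Grem1 and Tgfbr2 fell under +Fgf and rose under +Wnt. With the RNA integrity number as a covariate the falls of Inhba (-1.79, adjusted p = 0.0799), Fst (-0.97, adjusted p = 0.0576) and Grem1 (-0.94, adjusted p = 0.119) under +Fgf were not called. The rise of Inhba under +Wnt (0.92, adjusted p = 0.0268) was not called without replicate 1 (0.78, adjusted p = 0.0917) or 3 (0.92, adjusted p = 0.0539) of Day 12 +Wnt, or without replicate 1 (0.93, adjusted p = 0.0512) or 3 (0.59, adjusted p = 0.156) of Day 15 +Wnt.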

How the results depend on the processing

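With the RNA integrity number as a covariate, 15 members passed from Day 12 to Day 15 under +Fgf (26 without it, and 25.9% against 57.1% of all genes) and 21 between +Fgf and +Wnt at Day 15 (32 without it, and 46% against 68.7% of all genes). That number was lowest in Day 15 +Fgf. It also turned the sign of Id1 from Day 12 to Day 15 under +Fgf (-0.04, adjusted p = 0.916), and of Id2 (-0.02, adjusted p = 0.85) and Acvr2a (0.05, adjusted p = 0.796) between +Fgf and +Wnt at Day 15, where quantile normalization also turned Id2 (-0.05, adjusted p = 0.313). The cause was not tested. Leaving out 1 library gave between 23 and 31 members for Day 12 +Fgf against Day 10, between 27 and 34 for Day 12 +Wnt against Day 10, between 24 and 29 and between 24 and 31 from Day 12 to Day 15 under +Fgf and +Wnt, between 28 and 30 and between 27 and 34 for +Fgf against +Wnt at Day 12 and Day 15, and between 24 and 27 for the interaction. Over 281 called gene values and all alternatives, 6988 of 7253 values kept direction and call, 261 kept direction and lost the call, and 4 changed sign. The edgeR test on recovered reads called between 27 and 33 members per comparison. Replicate numbers did not pair the libraries (median correlation of deviations -0.00804 for 30 same-numbered pairs). A replicate block gave 32, 34, 28, 29, 30, 31 and 25 members in the order above and ended 1 named call, Acvr1 at Day 15 (-0.2, adjusted p = 0.0652). The shares of all genes called were not counted for the edgeR, replicate block and left-out library fits, so these counts have no background beside them. Genes near 3 reads a library, such as Gdf5 at Day 10 and Inhba in Day 12 +Wnt, are limited by depth.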
